A study of Mus musculus with 12 samples.

Results

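The genes described here are 10 immediate early genes and AP-1 factors of the mouse, Fos, Fosb, Fosl1, Fosl2, Jun, Junb, Jund, Egr1, Atf3 and Ier2, in Myc-CaP prostate carcinoma cells and tumors exposed to the CDK12/13 degrader YJ1206. They were chosen by gene name, and all 10 were found in the cell tables, which list 40077 genes, and in the tumor tables, which list 34508. Measured values entered the choice: the large rise of Fos in treated cells and the change of Egr1 in tumors were known beforehand. Those contrasts are therefore given as descriptions with no test, and the adjusted p-values of the other members, from fits over all genes, are descriptions of genes whose results were known when they were picked. All 10 passed the filter on low counts in both experiments.

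Immediate early genes are transcribed within minutes of a stimulus because the proteins that switch them on are already in the cell. Growth factors, stress and calcium act through MAP kinases on serum response factor, its ETS partners and CREB at their promoters, and AU-rich elements make many of the transcripts short-lived. Fos and Jun proteins pair through leucine zippers to form AP-1, and Egr1 is a zinc finger factor.

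RNA was sequenced from 12 libraries in 4 groups of 3. Myc-CaP is a cell line from a prostate carcinoma of a mouse with a human MYC transgene under a probasin promoter, which is active in prostate epithelium. Cultures received DMSO, or YJ1206 at 1 µM for 24 hours. YJ1206 is a proteolysis-targeting chimera against the kinases CDK12 and CDK13, which are degraded after a ubiquitin ligase is recruited, so it acts on proteins rather than on transcripts directly. The same line was grown under the skin of male FVB mice, which were dosed orally 3 times a week with vehicle or with 100 mg/kg of YJ1206. All groups share the MYC-driven line, and ages of the mice are not given in the sources used here. A tumor library mixes carcinoma and host cells, all of them mouse, and in such bulk RNA fewer cells of a type cannot be told apart from less RNA per cell.

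Libraries held 13936902 to 26928365 counts on genes, and the tables' values are estimated counts, so 3 counts amounted to 0.111 to 0.215 CPM (counts per 1000000). DMSO and YJ1206 cultures carry library numbers from 2 separate ranges, which leaves treatment and library batch confounded in the cells: they cannot be told apart, and the share of TPM on mitochondrial genes moved with treatment (8.87% to 9.29% against 13.1% to 13.2%). Of the prostate epithelial markers, Hoxb13 was at 8.78 to 9.20 TPM (transcripts per 1000000, scaled for length) in DMSO cells and Krt8 at 2.67 to 3.01, whereas Epcam and Pbsn were listed at 0 in all 6 cell libraries. In the vehicle tumors, library 3 lay between libraries 1 and 2 for 59.7% of genes tested and for 8 of the 10 members. The shares for library 3 were 50.6% and 6 of 10 in YJ1206 tumors, against 36.3% and 31.1% of genes in the groups of cells. Whether the tumor libraries numbered 3 came from separate tumors is uncertain, so the members' results in tumors are also given without them, and the named related genes by their direction.

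The members with their upstream sequence are shown first, because the letters recognised by CREB-type factors lie close to the start of some of them. RefSeq promoter windows on GRCm38.p6, 250 bases before to 50 after the start of a gene, were matched by symbol to 7 members: Fos, Fosb, Fosl2, Jun, Junb, Jund and Atf3. The 250 bases before the start are printed for the 4 members that rose in cells and whose RefSeq start lay within 30 bases of the gene start in the GENCODE vM21 annotation; the start of Atf3 lay 34706 bases away. Capitals mark TGACG, the core of the cAMP response element (CRE), on either strand, and TATAAA on the strand shown.
Fos (chr12:85473640-85473889, plus strand): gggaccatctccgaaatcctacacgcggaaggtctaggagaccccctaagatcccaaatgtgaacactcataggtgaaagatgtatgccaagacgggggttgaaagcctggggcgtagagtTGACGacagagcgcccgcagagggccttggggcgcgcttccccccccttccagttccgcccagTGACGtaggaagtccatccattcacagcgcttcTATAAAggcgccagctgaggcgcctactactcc
Fosb (chr7:19310046-19310295, minus strand): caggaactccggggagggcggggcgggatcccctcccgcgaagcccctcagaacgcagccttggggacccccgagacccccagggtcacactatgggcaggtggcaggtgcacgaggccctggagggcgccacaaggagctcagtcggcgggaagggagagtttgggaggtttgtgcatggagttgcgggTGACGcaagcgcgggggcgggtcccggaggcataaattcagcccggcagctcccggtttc
Junb (chr8:84978749-84978998, minus strand): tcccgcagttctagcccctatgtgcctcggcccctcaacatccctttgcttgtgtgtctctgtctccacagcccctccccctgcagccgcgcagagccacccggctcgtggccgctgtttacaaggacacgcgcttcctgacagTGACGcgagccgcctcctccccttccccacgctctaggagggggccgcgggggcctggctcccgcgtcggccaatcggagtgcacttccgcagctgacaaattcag
Jun (chr4:95052223-95052472, minus strand): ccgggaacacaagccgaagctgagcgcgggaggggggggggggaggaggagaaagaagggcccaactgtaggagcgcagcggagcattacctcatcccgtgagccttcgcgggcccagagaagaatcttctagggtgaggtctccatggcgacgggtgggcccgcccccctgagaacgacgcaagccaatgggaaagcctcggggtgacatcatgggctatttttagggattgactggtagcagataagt
Fos held TGACG at positions -129 and -66 and TATAAA at -33, counted from the RefSeq start as 1. Fosb held TGACG at -60 and Junb at -106, and TATAAA began at position 1 of Junb, outside the letters shown. The RefSeq start of Junb lay 30 bases before its GENCODE gene start, so positions counted from the latter would differ. The window of Jun held no match. TGACG occurred in 4 of the 7 members' windows, Atf3 being the other, and in 20.8% of all 32851 RefSeq windows, while TATAAA occurred in 2 of 7 and in 8.32% of all. The full element TGACGTCA, of which TGACG is a part, was in 0 of 7 and in 1.79% of all windows. The AP-1 element TGANTCA was in 0 of 7 (7.81% of all), the CArG box of serum response factor in 0 of 7 (1.63%), and the Egr1 element GCGTGGGCG in 0 of 7 (0.612%), on both strands. These matches describe letters in a window of 300 bases and no binding was measured. The shares of all windows are not matched for GC content. Its median was 52.7% over all windows, against 58.7% to 68.3% in the members' windows other than that of Jund (46.7%). Besides Atf3, the RefSeq starts of Jund and Fosl2 lay away from the GENCODE gene start, by 1210 and 671 bases. Fosl1, Egr1 and Ier2 had no window. A count of 0 therefore does not show that a gene lacks an element elsewhere.

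The members range in span from 1522 bases (Ier2) to 47744 bases (Atf3). On GRCm38, Fos lies at chr12:85473890-85477273 on the plus strand and spans 3384 bases with 4 exons, and Fosb at chr7:19302696-19310051 on the minus strand with 4 exons. Fosl1 (chr19:5447547-5455946) and Fosl2 (chr5:32135801-32157842) are on the plus strand with 4 exons each. Jun (chr4:95049034-95052222, minus strand), Junb (chr8:84974484-84978718, minus strand), Jund (chr8:70698949-70700616, plus strand) and Ier2 (chr8:84661331-84662852, minus strand) have 1 exon each, and Atf3 spans chr1:191170296-191218039 on the minus strand. Spans are of whole genes, but exon counts need not cover every isoform. Junb has 1 exon and a transcript length of 1809 bases within a span of 4235. Expression values refer to whole genes, all isoforms together.

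Levels of the members spread widely at rest, with Jund, Fosl1 and Junb the most abundant and Egr1, Fos and Fosb the scarcest in control cells. In DMSO cells the order by mean TPM, which corrects for length, was Jund (196), Fosl1 (151), Junb (73.6), Ier2 (34.4), Fosl2 (32.3), Jun (24.9), Atf3 (8.11), Egr1 (0.789), Fos (0.675) and Fosb (0.497). Neighbours in this order were separated in all 3 libraries down to Egr1, whereas Egr1, Fos and Fosb overlapped each other in turn. With YJ1206 the cells kept Jund on top (145 TPM), followed by Junb (98.9) and Fosl1 (69.4), and Fos (8.76) moved above Egr1 (3.43) and Fosb (2.20), with no overlap between any neighbours.

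**Figure D1:**
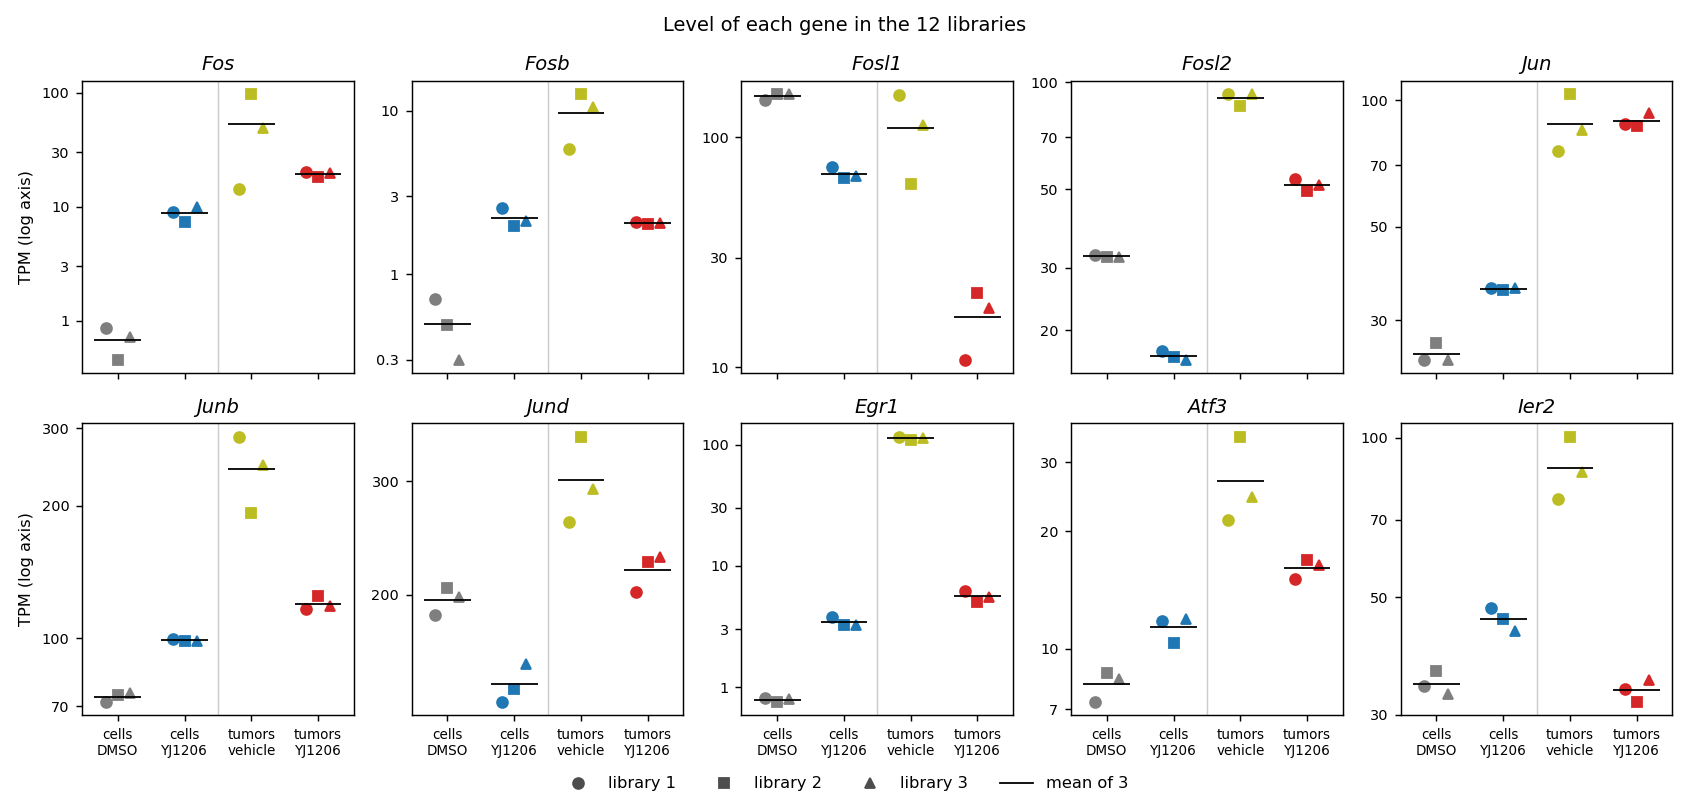
TPM of each gene (log axis, a scale of its own in each panel) in the 12 libraries, with symbols for library 1, 2 and 3 and a line at the mean of 3. Egr1 was near 113 TPM in all vehicle tumors and near 5.61 in YJ1206 tumors, and Fos spread from 14.4 to 96.8 TPM within the vehicle tumors.

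In vehicle tumors the order was Jund (301 TPM), Junb (243), Egr1 (113), Fosl1 (110), Fosl2 (90.3), Jun (88.1), Ier2 (87.8), Fos (53.3), Atf3 (26.9) and Fosb (9.67). The only neighbours whose libraries did not overlap were Junb with Egr1 and Atf3 with Fosb. In YJ1206 tumors Egr1 stood at 5.61 TPM, above Fosb (2.06) alone and below Atf3 (16.1). The cell and tumor tables were made separately, so the levels of cells and tumors are set side by side without a test.

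In Myc-CaP cells the Fos family split: Fos and Fosb were higher with YJ1206, and the Fos-related antigens Fosl1 and Fosl2 were lower. Fos, the rapidly induced partner of Jun, was nearly silent in control cultures, with 19, 10 and 16 counts, and reached 174, 137 and 185 counts under YJ1206. That is 0.97, 0.52 and 0.81 CPM against 12.5, 10.3 and 14.2 CPM, with every treated library above every control. The fitted rise was 15.9-fold (log2 fold change 3.99, standard error 0.21), a contrast that entered the choice of genes and is not tested. Fosb, a close relative of Fos, started at 29, 20 and 11 counts in controls and stood at 76, 70 and 73 counts after treatment. In CPM it went from 1.02 ± 0.47 to 5.45 ± 0.17 (mean ± SD over 3 libraries per group), and the fitted log2 fold change was 2.40 (standard error 0.26, edgeR adjusted p = 3.98e-09). The groups did not overlap, and the DMSO libraries of Fosb differed among themselves by 2.68-fold.

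Fosl1, which encodes Fra-1 and was the most abundant Fos family transcript of these cells, gave 139, 152 and 144 CPM with DMSO and 81.2, 80.8 and 83.7 CPM with YJ1206. It fell by 0.82 on the log2 scale (standard error 0.041, edgeR adjusted p = 3.59e-16). Fosl2, which encodes Fra-2, gave 126, 125 and 124 CPM with DMSO and 82.7, 79.8 and 79.3 CPM with YJ1206. Its log2 fold change was -0.63 (standard error 0.039, edgeR adjusted p = 2.72e-14). Control and treated libraries were apart for both genes, so that the abundant members of the family fell while the scarce ones rose.

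Of the Jun family, Jun and Junb rose in cells and Jund changed little. Jun, the main DNA-binding partner of Fos, had 43.5, 47.9 and 43.2 CPM with DMSO and 79.0, 78.6 and 80.3 CPM with YJ1206, a log2 fold change of 0.82 (standard error 0.050, edgeR adjusted p = 2.11e-14). Junb, which also pairs with Fos proteins, had 68.2, 70.8 and 71.1 CPM against 117, 116 and 118 CPM, or 0.74 on the log2 scale (standard error 0.039, edgeR adjusted p = 9.24e-16). In both genes all treated libraries were above all controls. Jund, the constitutive member of the family, had 161, 178 and 170 CPM with DMSO and 145, 153 and 169 CPM with YJ1206, and the groups overlapped. Its log2 fold change was -0.12 (standard error 0.045, edgeR adjusted p = 0.0156), and the call was lost without DMSO library 2, without YJ1206 library 1 and without YJ1206 library 2 (log2 fold changes from -0.18 to -0.066 with single libraries left out).

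The other immediate early genes rose in cells as well. Egr1 started at 31, 27 and 29 counts in controls and stood at 123, 98 and 102 counts after treatment. In CPM it went from 1.48 ± 0.10 to 8.01 ± 0.72, a log2 fold change of 2.43 (standard error 0.19, edgeR adjusted p = 3.32e-12). Atf3, a stress-induced bZIP factor of the ATF family that can pair with Jun proteins, had 7.75, 9.19 and 8.82 CPM with DMSO and 15.3, 13.6 and 15.8 CPM with YJ1206. Its log2 fold change was 0.80 (standard error 0.11, edgeR adjusted p = 1.91e-07). Ier2, an early response gene that encodes a small nuclear protein, went from 26.5, 28.2 and 25.3 CPM to 45.7, 43.7 and 42.1 CPM. Its log2 fold change was 0.72 (standard error 0.063, edgeR adjusted p = 6.48e-11). None of these 3 genes had overlapping groups.

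In all, 10 of 10 members passed an adjusted p of 0.05 in cells, 7 higher and 3 lower, where 76.1% of all 11826 genes tested passed, 37.8% higher and 38.3% lower. The groups did not overlap for 9 of 10 members, 7 higher and 2 lower, and for 77.5% of all genes, 38.4% higher and 39.2% lower. Changes in either direction were thus common in these cells, and the count of Fos rests on a contrast that entered the choice. The median log2 fold change was 0.77 over the members and -0.017 over all genes. Scaling moved the size of the changes: with total counts in place of TMM the median of all genes was -0.20 and 36.1% of the called genes were higher, against 49.7% with TMM. Under that scaling Jun had a log2 fold change of 0.64, Junb 0.55, Ier2 0.53, Atf3 0.61 and Jund -0.31. With the deposited TPM (log2 of TPM plus 1), where 29.2% of called genes were higher and the median was -0.24, the values were 0.50 for Jun, 0.42 for Junb, 0.39 for Ier2, 0.44 for Atf3 and -0.43 for Jund, and no member changed direction. On that scale Fos came to 2.54, Egr1 to 1.31 and Fosb to 1.10, and adding 1 compresses low values. With 0.1 added instead, Fos was at 3.54, Egr1 at 1.99 and Fosb at 1.998, where the median of all genes was -0.30.

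**Figure D2:**
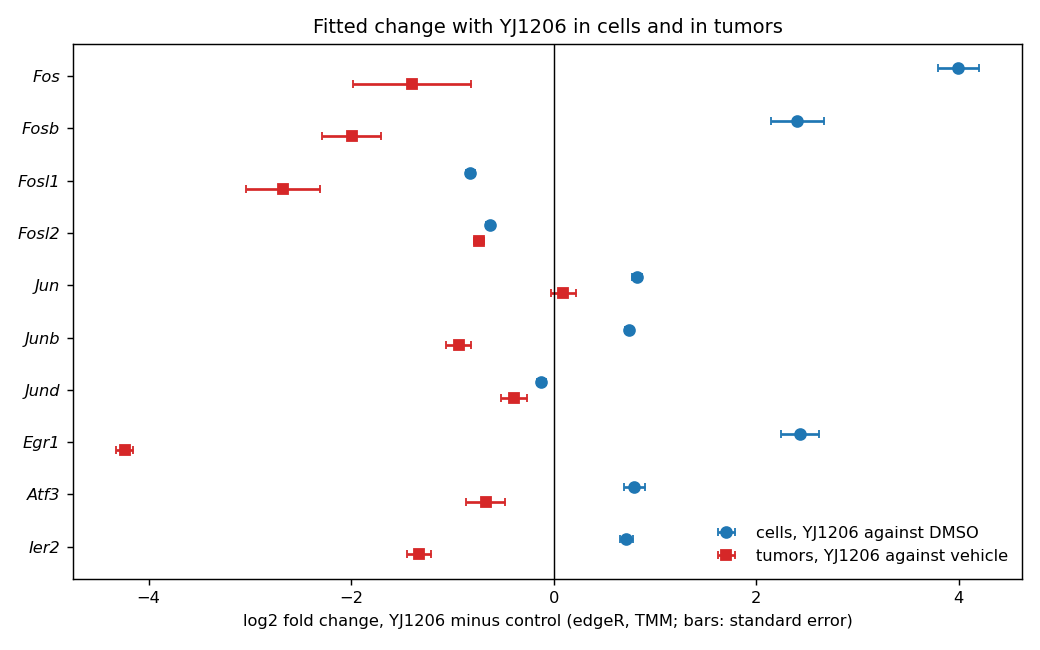
Fitted log2 fold change with YJ1206 for each gene in cells (circles, against DMSO) and tumors (squares, against vehicle); bars are standard errors, and some are smaller than the symbols. All 7 genes right of 0 in cells, except Jun, were left of 0 in tumors.

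Markers of leukocytes and endothelium were at or near 0 in the cultures, with summed levels of at most 0.0810 and 0.327 TPM, and the fibroblast list summed to 2.93 to 7.03 TPM, so the changes in cells were measured with little RNA of those types. Keratin Krt8 stood at 2.67 to 3.01 TPM with DMSO and 24.6 to 25.5 TPM with YJ1206, and its part in these results was not tested.

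In tumors 7 of the 10 members were called lower with YJ1206, while Fos, Jun and Jund did not pass the threshold. Egr1 was flat among the vehicle tumors, at 222, 219 and 216 CPM, and was at 12.6, 10.3 and 11.96 CPM in the YJ1206 tumors. In counts this is 4917, 5846 and 3346 against 231, 231 and 232. Every treated library was far below every control, an 18.9-fold difference (log2 fold change -4.24, standard error 0.084) that entered the choice of genes and is not tested. Without the libraries numbered 3 it was -4.27. The spread of Egr1 between vehicle tumors (SD 0.018 of log2 CPM) was above that of 2.18% of genes tested.

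Ier2 was at 63.1, 86.1 and 71.5 CPM in vehicle tumors and at 29.2, 28.2 and 30.6 CPM in YJ1206 tumors. The groups were apart, and the log2 fold change was -1.33 (standard error 0.12, edgeR adjusted p = 0.000983). Atf3 had 23.7, 40.4 and 27.5 CPM against 17.8, 20.4 and 19.4 CPM, or -0.67 on the log2 scale (standard error 0.19, edgeR adjusted p = 0.0395). All YJ1206 tumors were below all vehicle tumors for Atf3, but the call was lost in 5 of 13 alternative analyses, 4 of which left out a single library, and the log2 fold change ranged from -0.83 to -0.41 over all 13.

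All 4 Fos family genes had negative estimates in tumors, and Fosl1, Fosb and Fosl2 passed the threshold. Fosl1 had 157, 68.0 and 118 CPM in vehicle tumors and 11.0, 23.6 and 18.9 CPM in YJ1206 tumors. It spread by 2.30-fold among vehicle tumors and by 2.15-fold among treated ones, and the groups stayed apart, with a log2 fold change of -2.67 (standard error 0.37, edgeR adjusted p = 0.00312). Fosb had 11.5, 25.9 and 16.6 CPM against 4.37, 4.25 and 4.95 CPM, or -1.997 on the log2 scale (standard error 0.29, edgeR adjusted p = 0.00374). Fosl2 had 368, 356 and 371 CPM against 224, 213 and 218 CPM, or -0.74 on the log2 scale (standard error 0.050, edgeR adjusted p = 0.000629). Fosl2 was nearly as even between vehicle tumors as Egr1 was, with an SD of 0.031 of log2 CPM.

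Fos itself did not separate the tumor groups. It had 17.2, 120 and 58.3 CPM in the vehicle tumors and 25.5, 23.7 and 25.3 CPM in the YJ1206 tumors, so that the lowest vehicle tumor was below all treated ones. The log2 fold change was -1.40 (standard error 0.58, edgeR adjusted p = 0.117). It was -0.58 without vehicle library 2 and -1.86 without vehicle library 1, the 1 alternative of 13 in which it passed the threshold. The vehicle tumors differed in Fos by 6.99-fold, a spread above that of 99.0% of genes tested, and the YJ1206 tumors by 1.08-fold.

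Of the Jun family in tumors, Junb was lower, while Jund and Jun did not pass the threshold. Junb had 287, 201 and 251 CPM in vehicle tumors and 123, 135 and 127 CPM in YJ1206 tumors, a log2 fold change of -0.94 (standard error 0.12, edgeR adjusted p = 0.00283). Jund had 237, 335 and 269 CPM against 194, 222 and 223 CPM. Its groups did not overlap, and its log2 fold change was -0.39 (standard error 0.13, edgeR adjusted p = 0.0575), with 6 of 13 alternatives past the threshold. Jun had 141, 201 and 161 CPM against 174, 176 and 187 CPM, with overlapping groups and a log2 fold change of 0.092 (standard error 0.12, edgeR adjusted p = 0.620). Its sign turned to -0.019 without vehicle library 1, and without vehicle library 2 the estimate was 0.25 and passed the threshold.

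In tumors 7 of 10 members passed the threshold, all lower, where 26.8% of 15558 genes passed, 11.9% higher and 14.9% lower. The groups did not overlap for 8 of 10 members, all of them lower, and for 44.6% of all genes, 22.8% lower and 21.8% higher. Egr1 is in these counts and entered the choice. Of the 9 other members 6 were called. The median log2 fold change was -1.13 over the members and 0.0091 over all genes tested. With libraries 1 and 2 of each group alone, Fosb was at -2.12, Fosl1 at -2.69, Fosl2 at -0.73, Ier2 at -1.38 and Junb at -0.92, with edgeR adjusted p from 0.134 to 0.137. Fos was at -1.49 (edgeR adjusted p = 0.393), Atf3 at -0.75 (0.242), Jund at -0.46 (0.277) and Jun at 0.029 (0.952). None of the 9 members apart from Egr1 passed in that fit, and 6 of them had an unadjusted p under 0.05. Of all 15684 genes 1 passed (0.00638%), which was Egr1, a gene that entered the choice. An unadjusted p under 0.05 was found for 19.6% of all genes.

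The vehicle tumors were not alike in these genes, and the members fell into sets by library. Fos, Fosb, Jun, Jund, Atf3 and Ier2 were highest in vehicle library 2 and lowest in library 1. Fosl1 and Junb were highest in library 1 and lowest in library 2. Markers of skeletal muscle summed to 656, 18.8 and 408 TPM in vehicle libraries 1 to 3 and to 7.85 to 10.1 TPM in YJ1206 tumors, and 4 of the 4 markers tested were lower with YJ1206. Fibroblast markers summed to 735, 226 and 532 TPM in the vehicle tumors and to 166 to 364 TPM in the YJ1206 tumors, with 0 of 7 passing in edgeR and 3 at an unadjusted p under 0.05. Neutrophil markers summed to 19.9 to 27.0 against 10.7 to 16.4 TPM, with 1 of 4 tested lower. Other lists had calls the other way: macrophage and monocyte markers summed to 307 to 489 against 343 to 449 TPM with 2 of 7 higher, and Adgre1 went from 6.38 to 8.45 TPM in vehicle tumors to 12.2 to 13.8 TPM in YJ1206 tumors. Lyz2, the most abundant marker of that list, was at 158 to 277 against 139 to 176 TPM, with overlapping groups. T and NK cell markers summed to 8.79 to 11.5 against 9.80 to 11.2 TPM (1 of 3 tested higher), endothelial markers to 46.8 to 47.8 against 48.0 to 56.2 TPM (1 of 5 higher), and adipocyte markers to 68.3 to 72.8 against 88.6 to 110.0 TPM (1 of 2 higher). The adipocyte sum was mostly Fabp4, and this list summed to 82.4 to 88.4 TPM in DMSO cells and 67.9 to 74.8 TPM in YJ1206 cells. The T and NK cell list, mostly Cd3d, summed to 3.7 to 5.9 TPM in DMSO cells and 1.6 to 1.9 TPM in YJ1206 cells. Neither sum can thus be read as RNA of those host cells alone. Leukocyte markers summed to 45.5 to 52.4 against 46.8 to 63.9 TPM, with 0 of 4 passing in edgeR and 2 at an unadjusted p under 0.05. Of the prostate epithelial markers, Krt8 was at 60.3 to 75.5 TPM in vehicle tumors and 73.7 to 80.7 TPM in YJ1206 tumors, Hoxb13 at 18.5 to 19.0 and 16.7 to 18.4 TPM, and Pbsn was listed at 0. The part of these cell types in the members' results was not tested.

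The difference of the YJ1206 effect between tumors and cells was tested in a joint fit of 15423 genes. For each gene 1 estimate of spread was shared by both materials, whose biological coefficients of variation differ (0.0322 in cells, 0.139 in tumors). The adjusted p-values may therefore understate the spread of the tumors. The contrast in cells that enters this difference is confounded with library batch. With libraries 1 and 2 of each group alone, 6 of 8 members passed in this fit, where 0 of 9 passed in tumors. A negative value means a lower log2 fold change in tumors than in cells. It was -4.43 for Fosb (standard error 0.44, edgeR adjusted p = 2.95e-06), -2.08 for Ier2 (0.13, edgeR adjusted p = 7.35e-08) and -1.87 for Fosl1 (0.38, edgeR adjusted p = 0.00105). Junb gave -1.71 (edgeR adjusted p = 6.08e-07), Atf3 -1.50 (0.000167) and Jun -0.76 (0.000491). These 6 genes passed in all 16 alternatives. Jund gave -0.30 (edgeR adjusted p = 0.119) and Fosl2 -0.14 (0.0488), and the call of Fosl2 held in 2 of 16 alternatives and its sign turned to 0.077 with total counts alone. For Egr1 the difference was -6.70 and for Fos -5.42, both without a test since their contrasts entered the choice. Of the 8 members tested, 7 were called, each with the lower value in tumors, where 46.8% of all genes were called, 26% lower and 20.8% higher in tumors.

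Set side by side, Fosb, Junb, Atf3 and Ier2 were called higher in cells and lower in tumors, as were 7.23% of the 11307 genes tested in both. Egr1 was also higher in cells and lower in tumors, with its change in tumors not tested. Fosl1 and Fosl2 were called lower in both, as were 9% of those genes. Fosb was at 2.06 ± 0.037 TPM in YJ1206 tumors and 2.20 ± 0.29 TPM in YJ1206 cells, and at 9.67 ± 3.45 and 0.497 ± 0.20 TPM in their controls. Egr1 was at 5.61 ± 0.57 and 3.43 ± 0.31 TPM with YJ1206, without overlap, and at 113 ± 3.35 and 0.789 ± 0.031 TPM in the controls. Some members stood further apart in the treated groups, tumors against cells, with Fosl1 at 16.6 and 69.4 TPM and Fos at 19.5 and 8.76. Fosl2 was at 51.3 and 16.9 TPM and Jun at 89.5 and 35.6. Near levels in the treated groups were not particular to Fosb and Egr1. Junb was at 120 and 98.9 TPM, Ier2 at 33.4 and 45.4, Atf3 at 16.1 and 11.35 and Jund at 218 and 145. Treatment in culture lasted 24 hours, whereas the mice were dosed repeatedly. The experiments also differ in material, and in cells treatment is confounded with library batch, so that these differences cannot be told apart.

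The makeup of the AP-1 transcripts, the 7 Fos and Jun family genes as a pool, changed in each experiment. Their summed level went from 479 ± 16.4 TPM in DMSO cells to 377 ± 8.91 TPM with YJ1206, and from 895 ± 9.91 TPM in vehicle tumors to 517 ± 21.6 TPM with YJ1206 (mean ± SD, n = 3 libraries each). TPM shifted downward over all genes in cells, with a median log2 fold change of -0.24 (log2 of TPM plus 1) against -0.039 in tumors. The fall of the sum in cells thus depends on the scaling and cannot be read as a smaller pool. The Fos family made up 38.5% ± 0.52 of this sum in DMSO cells and 25.8% ± 1.48 in treated cells. In tumors its share was 29.4% ± 0.78 with vehicle and 17.3% ± 0.22 with YJ1206, and 29.2% and 17.4% without the libraries numbered 3. Fosl1 carried most of the loss: its share went from 31.5% to 18.4% in cells and from 12.3% to 3.19% in tumors.

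**Figure D3:**
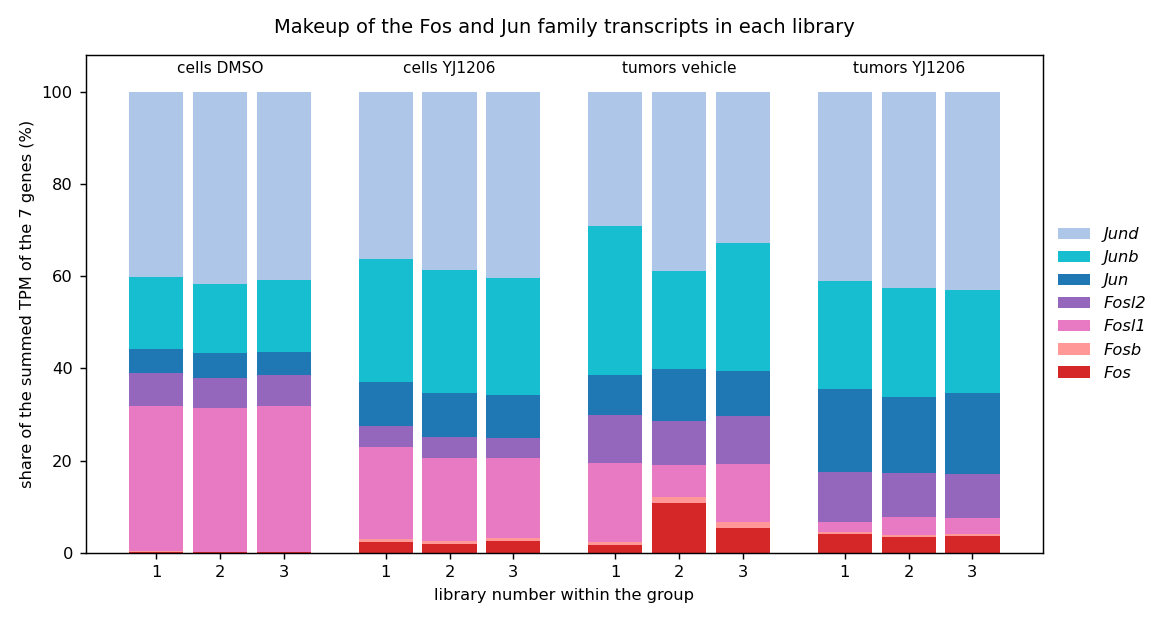
Share of each of the 7 Fos and Jun family genes in their summed TPM (percent), stacked to 100 for each of the 12 libraries. The share of Fosl1 is 31.2% to 31.7% in DMSO cells and 2.19% to 3.98% in YJ1206 tumors.

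Fos, in spite of its fold change, held 0.142% of the sum in DMSO cells and 2.32% in YJ1206 cells. Junb rose from 15.4% to 26.3% in cells and Jun from 5.20% to 9.46%. In tumors Jun went from 9.83% to 17.3% and Jund from 33.6% to 42.2%, while Junb was at 27.2% and 23.2%. These shares are descriptions from genes whose changes were known, with no test. In the vehicle tumors Fos ranged from 1.63% to 10.7% of the sum and Fosl1 from 6.95% to 17.3%, in opposite order over the libraries, while the share of the whole Fos family ranged only from 28.5% to 30.0%.

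Around these members, 135 related genes in 8 lists were examined, covering other early response genes, the MAP kinase pathway that drives them, their partners and targets, and the proteins that bind AU-rich elements. In cells 113 of them were tested and 97 passed, 65 higher and 32 lower, with 0.23 as median log2 fold change beside -0.017 over all genes and a background of 76.1% called. With total counts as the scaling 51 were higher and 43 lower, and with TPM 38 higher and 41 lower. In tumors 129 were tested and 47 passed, 4 higher and 43 lower, with a median of -0.21 beside 0.0091 and a background of 26.8%. The number in tumors was 27 without vehicle library 3, 24 without YJ1206 library 3 and 0 without both in edgeR, where 37 had an unadjusted p under 0.05 against 65 with all libraries. Without both, all 47 kept their direction.

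**Figure D4:**
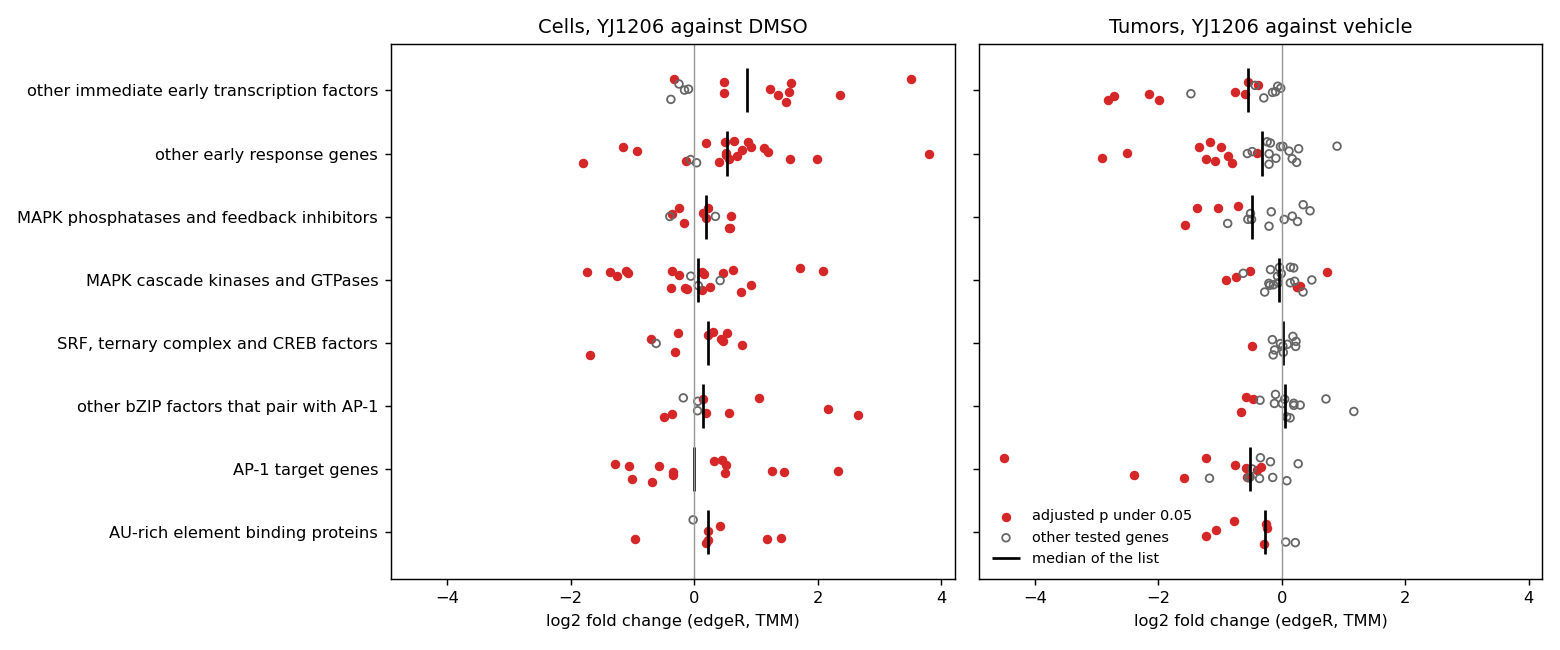
Fitted log2 fold change with YJ1206 of the related genes by list (rows), in cells (left) and tumors (right); filled points passed an adjusted p of 0.05 and bars mark the median of a list. The list of other immediate early transcription factors has its median at 0.86 in cells and -0.54 in tumors.

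Among 17 other immediate early transcription factors, 14 were tested in cells, with 9 higher and 1 lower, and 15 in tumors, with 0 higher and 8 lower. Nr4a2, an orphan nuclear receptor, rose in cells from 2.78 ± 0.38 to 14.3 ± 1.22 CPM (log2 change 2.37, standard error 0.14, edgeR adjusted p = 1.09e-14). Egr2, a paralog of Egr1, went from 0.17 ± 0.21 to 2.03 ± 0.42 CPM (edgeR adjusted p = 3.59e-07) and Nr4a3 from 0.30 ± 0.35 to 0.92 ± 0.085 CPM (edgeR adjusted p = 0.0114), both too near the limit of 3 counts for a fold in DMSO cells. Klf10, a factor induced by TGF-beta, was the 1 gene of the list that fell, with a log2 fold change of -0.33 (edgeR adjusted p = 9.91e-05). In tumors Nr4a1 went from 107 ± 29.8 to 15.1 ± 1.04 CPM (log2 change -2.81, standard error 0.20, edgeR adjusted p = 0.000629). Nr4a3 had a log2 fold change of -2.71 (edgeR adjusted p = 0.00196) and Egr3 of -2.15 (edgeR adjusted p = 0.0141).

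Of 25 other early response genes, 16 of 22 tested were higher and 4 lower in cells, and 0 of 24 higher and 10 lower in tumors. Gadd45b, a stress sensor that binds MAP kinase kinases, rose in cells from 17.8 ± 0.45 to 249 ± 15.9 CPM (log2 change 3.81, standard error 0.052, edgeR adjusted p = 2.03e-28). Ier5l (1.99) and Gadd45a (1.55) rose as well on the log2 scale. Ptgs2, which encodes the inducible cyclooxygenase, fell in cells from 350 ± 6.49 to 101 ± 5.53 CPM (log2 change -1.79, standard error 0.037, edgeR adjusted p = 1.28e-24). Tissue factor F3 (-1.16) and Trib1 (-0.92) fell with it. In tumors Ptgs2 had a log2 fold change of -2.50 (standard error 0.23, edgeR adjusted p = 0.00112). Arc, an early gene best known from neurons, went from 240 ± 67.5 to 31.8 ± 4.15 CPM (log2 change -2.92, standard error 0.22, edgeR adjusted p = 0.000705). Errfi1, a feedback inhibitor of the EGF receptor, had a log2 fold change of -1.34 (standard error 0.075, edgeR adjusted p = 0.000511).

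Of the MAP kinase phosphatases and feedback inhibitors in cells, 6 of 11 tested were higher and 3 lower (median log2 fold change 0.19). Dusp10 (0.60), Dusp2 (0.58) and Dusp1 (0.57) were higher and Dusp8 (-0.35), Spred2 (-0.24) and Spred1 (-0.17) lower. In tumors 4 of 15 were lower and 0 higher, among them Dusp2 (-1.56), Dusp6 (-1.37) and Dusp1 (-1.03), which encode phosphatases that switch MAP kinases off. The kinases and GTPases of the cascade went both ways in cells, 10 higher and 10 lower of 23 tested. Map2k6 went from 0.39 ± 0.20 to 1.69 ± 0.33 CPM, Rps6ka5 rose by 1.71 on the log2 scale, and Egfr (-1.73), Rps6ka4 (-1.36) and Rps6ka3 (-1.25) fell. In tumors 4 of 23 were higher, Rps6ka5 (0.73), Rps6ka1 (0.30) and Mapk3 (0.25) among them, and 3 lower, Map2k3 (-0.91), Rps6ka4 (-0.73) and Rps6ka3 (-0.51). Rps6ka4 and Rps6ka5 encode MSK2 and MSK1, kinases that phosphorylate CREB and histone H3.

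Among serum response factor, the ternary complex factors and the CREB group, 6 of 11 were higher and 4 lower in cells. The CREB coactivators Crtc2 (0.78), Crtc1 (0.54) and Crtc3 (0.46) were higher, and the ETS partners Elk1 (-1.68) and Elk3 (-0.70) and Creb1 (-0.31) lower. In tumors 1 of 11 passed: Srf went from 40.2 ± 1.98 to 28.9 ± 1.69 CPM (log2 change -0.48, standard error 0.079, edgeR adjusted p = 0.00580). Of the other bZIP factors, 6 of 11 were higher in cells, with Ddit3 (2.17) and Atf5 (1.05), both of the stress response, and Cebpd at 0.29 ± 0.16 and 1.87 ± 0.18 CPM, and 2 were lower, Atf7 (-0.49) and Mafg (-0.36). In tumors 3 of 15 were lower, Cebpb (-0.66), Atf4 (-0.59) and Atf1 (-0.46).

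The AP-1 target genes split evenly in cells, 7 higher and 7 lower of 14 tested (median log2 fold change -0.0046). Spp1, which encodes osteopontin, rose from 130 ± 4.54 to 654 ± 11.9 CPM (log2 change 2.33, standard error 0.030, edgeR adjusted p = 8.29e-29), and Plau (1.46) and Hmox1 (1.26) rose. Plaur, the receptor of the Plau protease, had -1.28, the protease inhibitor Timp1 -1.06 and the integrin Itga5 -1.01. In tumors 9 of 19 were lower and 0 higher. Itga5 went from 496 ± 158 to 166 ± 14.7 CPM (log2 change -1.58, standard error 0.22, edgeR adjusted p = 0.00331) and the protease gene Mmp3 from 6.18 ± 1.83 to 1.17 ± 0.044 CPM (log2 change -2.39, standard error 0.27, edgeR adjusted p = 0.00186). Il6 went from 1.65 ± 1.01 to 0.066 ± 0.058 CPM (edgeR adjusted p = 0.00883), the latter under the limit of 3 counts, so no fold is given.

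The 8 genes for proteins that bind AU-rich elements, which control the decay of Fos and other early transcripts, included 6 higher and 1 lower in cells. Zfp36l1 (1.40), Khsrp (1.18) and Zfp36l2 (0.42) were higher and Tia1 (-0.96) lower. In tumors 6 of 8 were lower and 0 higher. Zfp36, itself an early gene, went from 98.6 ± 38.4 to 42.2 ± 2.99 CPM (log2 change -1.22, standard error 0.26, edgeR adjusted p = 0.0131), Zfp36l2 had -1.07 and Hnrnpd -0.77.

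The genes whose log2 CPM followed Fos most closely over the 12 libraries, among 11278 genes tested in both tables, were H2bc21 (Pearson r = 0.984), Ankrd44 (0.976) and Aff1 (0.970). For Egr1 they were Per1 (0.960), Dip2b (0.948) and Nr4a3 (0.945). These correlations span 4 groups from 2 materials and are dominated by the differences between them. They are a description with no test.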

How the data were processed

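Members, lists and markers were chosen with earlier results of these data known. Per the labels, libraries of 2 experiments (3 per group) were assigned to groups by title and treatment. The authors deposited, per experiment, estimated counts per gene, unscaled between libraries, and TPM, scaled by the authors for transcript length and to a fixed sum. The submitters' processing notes name kallisto and the builds GRCm38 and mm10, with no version; the annotation release is not given in the sources used here, and identifier versions differed between the tables for Junb. The study's methods describe ribosomal RNA depletion by enzyme, but labels of the cells name polyA RNA. Kallisto divides reads among isoforms and near-identical copies by estimation, and whether strand was used is not given in the sources used here.

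After rounding, cells and tumors were analysed separately (6 libraries per fit) by the quasi-likelihood test of edgeR 4.0.16, run in R 4.3.3 after filterByExpr and TMM scaling. P-values were adjusted over all genes tested (Benjamini-Hochberg), with a threshold of 0.05. CPM are scaled by TMM library sizes. The biological coefficient of variation was 0.0322 in cells and 0.139 in tumors. The interaction of material and treatment was fitted over 12 libraries and the genes in both tables, matched without identifier version. Alternatives were DESeq2 1.42.0, total counts alone, no filter, limma 3.58.1 on log2(TPM + 1) or log2(TPM + 0.1), each library left out, a replicate block, and libraries 1 and 2 alone. No 2 libraries of a group agreed within sampling noise (chi-square per gene from 1.91 in cells to 46.7 in tumors), and replicates are described by the study as independent. The steps were tested on simulated data. Named genes are all members, up to 3 genes per direction of each related list and comparison with the largest change among those passing, and the 3 genes most like Fos and Egr1. Some genes that these rules or the marker lists name are not reported here. Limits from counts cover counting error only.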

Additional observations from a re-analysis of the deposited data

Results flagged for a closer look

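The response to YJ1206 differed between tumors and cells for 7 of 8 members tested by the interaction test, as it did for 46.8% of all genes. That test shares 1 estimate of spread per gene between materials whose spreads differ, and its contrast in cells is confounded with library batch. The log2 difference, tumors minus cells, was -4.431 for Fosb, -2.075 for Ier2, -1.874 for Fosl1, -1.71 for Junb, -1.499 for Atf3, -0.7599 for Jun and -0.1434 for Fosl2. Fosl2 fell in both materials, and its call held in 2 of 16 alternatives. For Egr1 the difference was -6.701: every YJ1206 culture was above every DMSO culture and every YJ1206 tumor below every vehicle tumor, and the difference was not tested, because the change in tumors entered the choice of genes. No test for an outlying library was made, as each group holds 3.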

How the results depend on the processing

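In cells 10 members passed in every alternative that kept all libraries, and 9 to 10 with single libraries left out, Jund being the gene lost. In tumors 6 to 9 members passed with single libraries left out against 7, and in the interaction 8 to 9 against 9. These counts cover contrasts that entered the choice: Fos in cells, Egr1 in tumors and both in the interaction. Without them, the main fits had 9 of 9 members passing in cells, 6 of 9 in tumors and 7 of 8 in the interaction. The shares of all genes passing were 76.1%, 26.8% and 46.8%. With libraries 1 and 2 of each group only, 0 of the 9 members other than Egr1 passed in tumors, and 6 of them had an unadjusted p under 0.05. Of the related genes 0 passed, against 47 with all libraries, and 37 had an unadjusted p under 0.05. Over all genes that fit had 3068 at an unadjusted p under 0.05 against 6197 with all libraries. Fewer libraries leave fewer degrees of freedom in that fit. The related genes passing in tumors ranged from 24 to 63 with single libraries left out (24 without YJ1206 library 3, 27 without vehicle library 3, 63 without vehicle library 2), and in cells from 93 to 98. The genes passing in tumors ranged from 1877 to 5724. The direction of Jun in tumors turned to -0.01907 without vehicle library 1 (0.247 without vehicle library 2), and that of Fosl2 in the interaction to 0.07708 with total counts; the cause was not tested. Replicate numbers gave no sign of pairing: correlations of deviations between same-numbered libraries ran from -0.026 to 0.0016, and between others from -0.025 to 0.04. Such correlations over all genes tested cannot exclude that same-numbered libraries were handled together. With the replicate block 10 members passed in cells, 8 in tumors and 9 in the interaction, counts that again cover Fos and Egr1. In that fit 98 and 44 related genes passed in cells and tumors. The depth of 3 counts limits folds of the scarcest genes, Egr2, Nr4a3, Cebpd and Map2k6 in DMSO cells and Il6 in YJ1206 tumors.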
